A study of Mus musculus with 12 samples.

Results

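Expression of the epidermal growth factor (EGF) ligands and their receptors was examined in cultured mouse bile duct cells. The set held 10 of the 24421 genes counted, namely the ligand genes Areg, Ereg, Hbegf, Tgfa, Btc, Epgn and Egf and the receptor genes Egfr, Erbb2 and Erbb3. They were taken by name as a family, and Areg drew attention to it because it was among the genes most reduced in eGFP against siCTL libraries, so the set was chosen by measured values, the Areg counts of those 6 libraries. Values of that contrast are therefore given below as a description, without a test.

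The cells were small mice cholangiocyte cells (SMCC), an immortalized line, and RNA was sequenced as 12 libraries. In one arm, β-catenin (Ctnnb1) was silenced for 24 h with an siRNA (si-bcatenin, n = 3) next to a control siRNA (siCTL, n = 3), both delivered with Lipofectamine RNAiMAX. In the other arm, cells received for 48 h a plasmid for S45Y, a stable and constitutively active β-catenin (S45Y, n = 3), or for enhanced green fluorescent protein (eGFP, n = 3), both delivered with Lipofectamine 3000. Thus siRNA and plasmid libraries differed in the nucleic acid, the reagent and the time, no untransfected cells were measured, and all groups came from a single cell line.

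EGF ligands are made as membrane-anchored precursors that proteases of the ADAM family release from the cell surface. Released ligand binds EGFR or a related ErbB receptor, the receptors pair and phosphorylate each other, and the signal runs through the Ras-MAPK and PI3K-Akt cascades to immediate early genes and to feedback inhibitors. In the liver this system is known for its part in regeneration and in the proliferation of biliary epithelial cells (BECs).

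Library totals lay between 221767 and 326686 counts in siCTL, 295677 and 313074 in si-bcatenin, 113481 and 122304 in eGFP, and 91468 and 117419 in S45Y. A single count therefore weighed between 2.98 and 11.4 CPM (counts relative to the scaled library total), and the plasmid libraries had the coarser steps. Rn45s, the ribosomal RNA precursor, took 12.6% ± 2.69 of counts in eGFP and 12.9% ± 2.47 in S45Y but 4.31% ± 1.03 in siCTL and 2.15% ± 0.463 in si-bcatenin (SD, n = 3 each). Ctnnb1, the silenced gene, was at 87.3 ± 28.2 CPM in siCTL and 14.9 ± 18.1 CPM in si-bcatenin (SD, n = 3 each), a log2 fold change of −2.54 (SE 0.55, edgeR quasi-likelihood test with Benjamini-Hochberg adjustment, adjusted p = 0.00491). In the other arm it was at 78.1 ± 23.7 CPM in eGFP and 107 ± 59.5 CPM in S45Y (SD, n = 3 each), which did not pass (log2 fold change 0.51, SE 0.55, edgeR adjusted p = 0.989). Whether β-catenin RNA from the plasmid would be counted under Ctnnb1 is not given in the sources used here, so the libraries labelled S45Y could not be checked in this way. Of 12 cholangiocyte markers, 9 had counts, led by the keratin gene Krt18, while Epcam, Cftr and Aqp1 had none in any library. At this depth a gene without counts may still be at up to 3.26 CPM in si-bcatenin and 9.85 CPM in S45Y. The study reports CFTR protein pulled down with β-catenin in SMCC. Counts were found for 1 of 6 hepatocyte markers (Hnf4a), for 3 of 6 fibroblast markers (Col1a1, Dcn and Pdgfrb), for 2 of 5 immune markers (Cd68 and Csf1r) and for 2 of 3 endothelial markers (Cdh5 and Kdr). The others of these lists were at 0 in every library, among them Alb, Col1a2, Col3a1, Ptprc, Lyz2 and Pecam1.

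Areg, the gene of amphiregulin, a ligand of EGFR, dominated the family in siRNA-transfected cells. It gave 619 of the family's counts over the 12 libraries (65.7%), followed by Ereg with 115 (12.2%), Hbegf with 90 (9.55%), Egfr with 58 (6.16%) and Erbb2 with 36 (3.82%). Most of these counts came from the deeper siRNA libraries, and in the plasmid groups the leading shares had overlapping intervals, with Egfr at 28.0% and Areg at 22.0% of 50 family counts in eGFP and Hbegf at 32.4% and Areg at 29.4% of 34 in S45Y. The remaining genes were barely detected, with 7 counts each for Btc and Epgn, 5 each for Tgfa and Erbb3 and none for Egf. Expressed per kilobase of annotated exon, so that genes could be compared, Areg averaged 275 CPM per kb over the 6 siRNA libraries, with a range of 216 to 331. The next in order, Ereg, averaged 14.0 CPM per kb (8.95 to 22.4) and Hbegf 8.23 CPM per kb (3.95 to 11.1), so Areg lay above every library of both while the ranges of Ereg and Hbegf overlapped. Erbb2 (2.62 CPM per kb, 1.22 to 4.57), Epgn (2.15, 0 to 3.62) and Egfr (1.90, 0.843 to 2.67) followed with overlapping ranges, and Btc, Erbb3 and Tgfa averaged below 1 CPM per kb.

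Areg lies on chromosome 5 of mm10 from 91139599 to 91148432 on the plus strand, and its exons overlap no other annotated gene. It sits in a cluster of EGF ligand genes that spans 375.5 kb from Epgn (91027464 to 91035215, plus strand) through Ereg (91074622 to 91093646, plus strand) and Areg to Btc (91357261 to 91402994, minus strand). The 250 bases before the Areg start (RefSeq, GRCm38.p6, chr5:91139349-91139598, plus strand) are shown because Areg carries the main difference of these data. Capitals mark a cAMP response element (CRE, TGACGTCA) that begins 61 bases before the start and a TATA box (TATAAA) that begins 31 bases before it.
Areg promoter: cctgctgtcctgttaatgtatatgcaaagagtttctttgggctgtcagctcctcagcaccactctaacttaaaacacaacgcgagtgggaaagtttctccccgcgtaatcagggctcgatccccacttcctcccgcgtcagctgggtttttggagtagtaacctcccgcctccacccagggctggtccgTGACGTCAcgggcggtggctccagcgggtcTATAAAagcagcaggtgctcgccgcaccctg
On either strand, the CRE letters occur in 1.55% of 32851 RefSeq promoter windows of the same length and the TATA letters in 12.4%. A GC box (GGGCGG), present in 32.7% of windows, begins 52 bases before the Areg start and overlaps neither of the marked motifs. The letters of an AP-1 site (TGANTCA, in 6.75% of windows) and of a TCF/LEF site (CTTTGAT, in 3.21%), the latter being the motif through which β-catenin acts, were not in this window. Windows were found for 7 of the 10 members, and only the Areg window held the CRE letters. The Epgn window held a TATA box 86 bases before its RefSeq start, which lies inside the GENCODE gene given above, Egfr a GC box and Tgfa 2 GC boxes, while the windows of Btc, Egf and Erbb2 held none of the 5 motifs. These matches are a description of the letters and do not show that a factor binds.

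**Figure D1:**
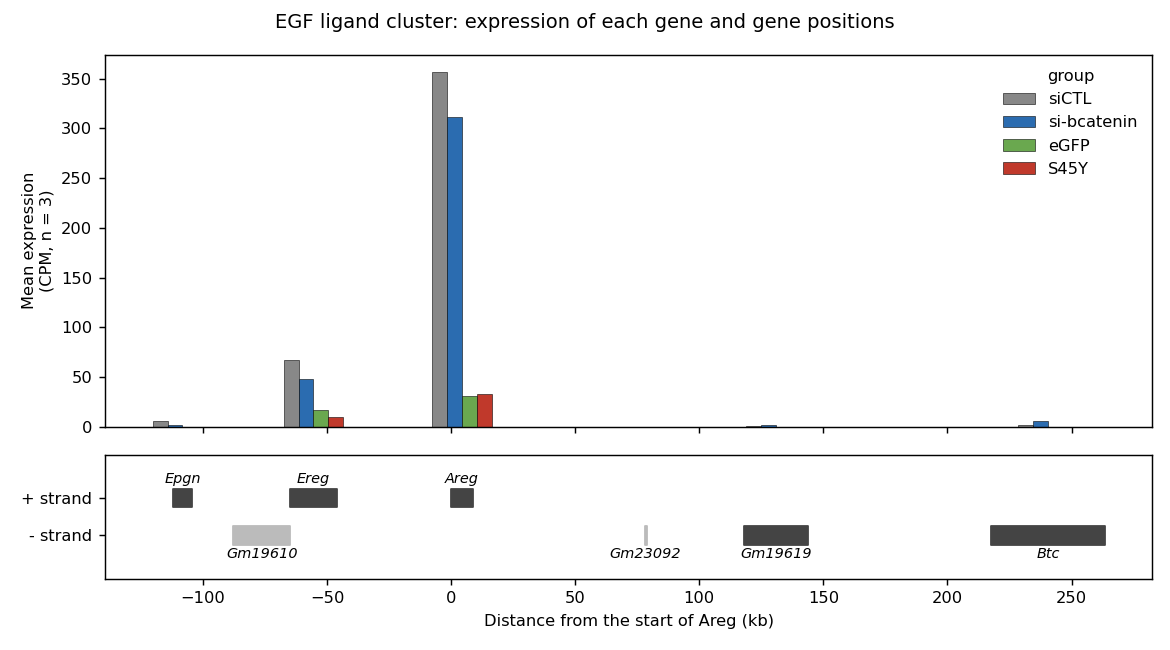
Mean CPM of each counted gene of the EGF ligand cluster in the 4 groups (bars, n = 3 libraries each, upper panel) above gene positions in kb from the Areg start by strand (lower panel, pale boxes are genes not in the count table). Areg has the tallest bars in both siRNA groups, 356 CPM in siCTL and 312 CPM in si-bcatenin, Ereg is next, and the bars of both are lower in the plasmid groups.

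Silencing of β-catenin addressed whether loss of this co-activator alters gene expression in cholangiocytes. None of the 3 family members with enough counts to be tested, Areg, Ereg and Hbegf, passed the test. Among all 3484 genes tested, 54 passed an adjusted p below 0.05, a share of 1.55%, with 28 higher and 26 lower in si-bcatenin. At an unadjusted p below 0.05 the count was 436 genes, none of them a family member.

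Areg had 382, 402 and 285 CPM in the siCTL libraries and 262, 341 and 333 CPM in the si-bcatenin libraries. The groups overlapped, with means of 356 ± 62.8 and 312 ± 43.3 CPM (SD, n = 3 each). In the edgeR fit its log2 fold change was −0.21 (SE 0.18, 95% interval −0.58 to 0.16), with an adjusted p of 0.731. The siCTL libraries of this comparison are also among those whose Areg counts chose the set, so the test is not independent of the choice. Ereg, which encodes epiregulin, a ligand of EGFR and ErbB4, had 44.0, 92.3 and 65.4 CPM in siCTL and 37.0, 70.0 and 38.4 CPM in si-bcatenin. Its groups overlapped as well, and its log2 fold change was −0.51 (SE 0.41, 95% interval −1.34 to 0.32, edgeR adjusted p = 0.695). Hbegf, which encodes heparin-binding EGF-like growth factor and lies apart from the cluster on chromosome 18 (36504927 to 36515805, minus strand), had 52.8, 38.7 and 39.3 CPM in siCTL and 53.8, 19.1 and 35.2 CPM in si-bcatenin. The single low library of si-bcatenin set the direction, since the log2 fold change of −0.28 (SE 0.49, 95% interval −1.28 to 0.72, edgeR adjusted p = 0.891) became 0.03 without si-bcatenin replicate 2.

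The receptors, Egfr (16752203 to 16918158) and Erbb2 (98412470 to 98437716) on the plus strand of chromosome 11 and Erbb3 on chromosome 10, were near the detection limit. Egfr, the receptor shared by all of these ligands, had 26.4, 20.8 and 29.4 CPM in siCTL and 30.2, 9.55 and 12.8 CPM in si-bcatenin, with overlap (two-sided exact permutation test of log2 CPM, p = 0.4). Erbb2, the co-receptor without a ligand of its own, had 8.79, 23.8 and 9.81 CPM in siCTL and 23.5, 6.37 and 9.60 CPM in si-bcatenin (two-sided exact permutation test, p = 0.7). With 3 libraries against 3 this test cannot give a p below 0.1. As ratios of summed, scaled counts of si-bcatenin to siCTL, Egfr was at 0.684 (95% counting interval 0.336 to 1.36) and Erbb2 at 0.868 (0.362 to 2.06); both intervals include 1. None of the 5 members with at least 15 counts in this comparison was separated between the groups, against 14.2% of the 6999 genes with such counts.

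The libraries labelled S45Y addressed the opposite question, whether an active β-catenin alters expression. No gene of 1819 tested passed an adjusted p below 0.05 (0%), by edgeR or by DESeq2, while 107 did at an unadjusted p below 0.05. No family member had enough counts to enter this test. Areg had 5, 6 and 0 counts in eGFP and 5, 0 and 5 counts in S45Y, which are 42.3, 49.2 and 0 CPM against 56.9, 0 and 43.3 CPM. Each group thus held 1 library without a count, and the means were 30.5 ± 26.7 and 33.4 ± 29.7 CPM (SD, n = 3 each). The ratio of S45Y to eGFP was 1.05, with a counting interval of 0.399 to 2.72 (two-sided exact permutation test of log2 CPM, p = 0.8). The eGFP counts of Areg are among the values that chose the set, so this test too is not independent of the choice.

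Ereg had 8.46, 32.8 and 9.33 CPM in eGFP and 11.4, 10.2 and 8.66 CPM in S45Y, the latter being 1 count in each library. Hbegf had 8.46, 49.2 and 18.7 CPM in eGFP and 45.5, 51.1 and 17.3 CPM in S45Y. Egfr had 8.46, 65.6 and 46.6 CPM in eGFP and 34.2, 20.5 and 8.66 CPM in S45Y. In each case the groups overlapped, and eGFP replicate 1 held a single count of each of these genes. Ratios of S45Y to eGFP were 0.577 for Ereg (0.0933 to 2.70), 1.41 for Hbegf (0.531 to 3.85), 0.494 for Egfr (0.156 to 1.37) and 0.433 for Erbb2 (0.0739 to 1.80), with permutation p-values between 0.5 and 0.9 (two-sided, exact). None of the 3 members with at least 15 counts was separated between the groups, against 10.1% of 4666 genes. At this depth a change of severalfold in most of the family was not detectable.

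**Figure D2:**
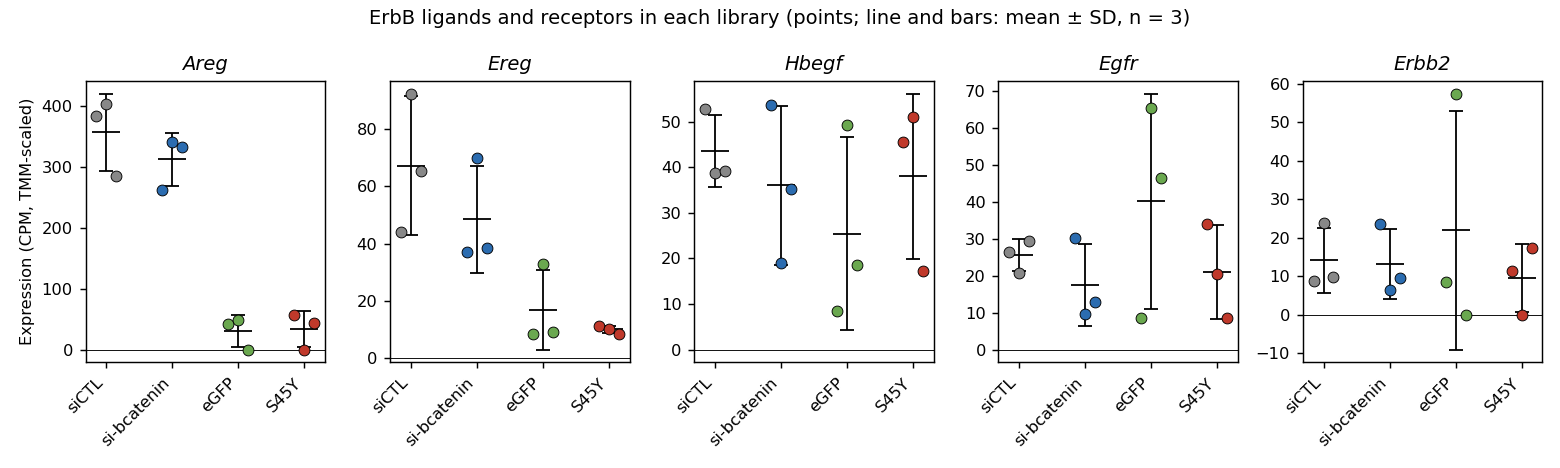
CPM of Areg, Ereg, Hbegf, Egfr and Erbb2 in each library (points, one per library, separate axes), with mean and SD (lines and bars, n = 3) for siCTL, si-bcatenin, eGFP and S45Y. Areg lies between 262 and 402 CPM in the 6 siRNA libraries and at or below 56.9 CPM in the 6 plasmid libraries, whereas the points of Hbegf, Egfr and Erbb2 overlap across all groups.

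The larger difference lay between the plasmid and the siRNA libraries. In the contrast that chose the set, Areg was at 356 ± 62.8 CPM in siCTL and 30.5 ± 26.7 CPM in eGFP (SD, n = 3 each), a log2 fold change of −3.44 and rank 3 among the most reduced of 2459 genes. Ereg was at 67.2 ± 24.2 CPM in siCTL and 16.9 ± 13.8 CPM in eGFP, and as summed counts it was 4.06-fold lower (95% counting interval 1.76 to 11.5). Areg and Ereg were the 2 of 5 members with at least 15 counts that did not overlap and were lower in eGFP, beside 10.9% of 6210 genes. Ratios of eGFP to siCTL were 0.609 (0.258 to 1.28) for Hbegf, 1.59 (0.754 to 3.26) for Egfr and 1.54 (0.553 to 4.01) for Erbb2. These values chose the set and support nothing by themselves.

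The same plasmid to siRNA difference was then tested in the 6 libraries outside the contrast that chose the set, S45Y against si-bcatenin. Earlier results of these data were known when the set was chosen, so full independence from the choice is not claimed. Areg had 107, 104 and 78 counts in si-bcatenin, at 341, 333 and 262 CPM, and 5, 5 and 0 counts in S45Y, at 56.9, 43.3 and 0 CPM. Every S45Y library was below every si-bcatenin library. Areg was lower by a log2 fold change of −3.18 (SE 0.44, 95% interval −4.07 to −2.30, edgeR adjusted p = 8.91e-07), a 9.09-fold decrease, which ranked 6 among the most reduced of 2702 genes, whose median log2 fold change was 0.02. With so few S45Y counts Areg passed the filter through si-bcatenin alone, the group where it was high, and without any filter its log2 fold change was −3.50 (edgeR adjusted p = 3.72e-15). In this comparison 557 genes passed (20.6%), of which 319 were lower in S45Y (11.8%), so a lower level by itself was common. The fold rested on few S45Y counts, and as summed counts, 289 against 10, it was 9.42-fold with a counting interval of 5.05 to 19.8. Without S45Y replicate 2, which had no count, the log2 fold change was −2.71, and without S45Y replicate 1 it was −3.78, both with an edgeR adjusted p below 0.05 (1.60e-05 and 1.10e-05).

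Ereg was also lower in each S45Y library but did not pass the test across genes. It had 37.0, 70.0 and 38.4 CPM in si-bcatenin and 11.4, 10.2 and 8.66 CPM in S45Y, the latter being 1 count in each library. The groups did not overlap, which gives the smallest p of the design (two-sided exact permutation test of log2 CPM, p = 0.1). As summed counts, 45 against 3, Ereg was 4.89-fold lower with a counting interval of 1.57 to 24.6. It had too few counts for the main filter. With a lower filter, chosen after seeing the data, the log2 fold change was −2.35 (SE 0.83, edgeR adjusted p = 0.0591). Ereg passed that filter through si-bcatenin alone, the group where it was high, so these values are a description. In Ereg, 141 bases of exon are shared with Gm19610 on the opposite strand, and whether reads were counted by strand is not given in the sources used here.

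Hbegf and the receptors gave no separation between these libraries. Hbegf had 53.8, 19.1 and 35.2 CPM in si-bcatenin and 45.5, 51.1 and 17.3 CPM in S45Y, and the ratio of summed counts was 1.02 (0.467 to 2.08), two-sided exact permutation p = 1. Egfr was at a ratio of 1.15 (0.369 to 3.10, exact permutation p = 0.8) and Erbb2 at 0.767 (0.139 to 2.84, exact permutation p = 0.7). The intervals of Hbegf and Egfr lie above that of Areg (0.0504 to 0.198), and the interval of Erbb2 overlaps it. Of the 5 members with at least 15 counts, 2 (Areg and Ereg) were lower in S45Y without overlap, against 12.9% of 6039 genes, and none was higher. Both reached 15 counts through si-bcatenin alone, whose libraries were deeper, so nothing is read from this count.

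The ratio of Areg to Hbegf within a library does not depend on how libraries are scaled. Counts of Areg per count of Hbegf were 8.35 in siCTL, 8.76 in si-bcatenin, 1.22 in eGFP and 0.909 in S45Y. Between si-bcatenin and S45Y the mean log2 ratio (pseudocount 0.5) differed by −3.84, from 3.16 to −0.68, with no overlap and a two-sided exact permutation p of 0.1, the smallest the design allows. The S45Y ratios were 0.29, −3.46 and 1.14 on the log2 scale, and the low value of replicate 2, which had no Areg count, is set by the pseudocount. Without that library, a check chosen after seeing the data, the difference was −2.45, and without S45Y replicate 3 it was −4.75. The share of Areg among all family counts was 67.9% in siCTL (95% Clopper-Pearson interval 63.4 to 72.2) and 71.7% in si-bcatenin (67.0 to 76.1). It was 22.0% in eGFP (11.5 to 36.0) and 29.4% in S45Y (15.1 to 47.5), where Hbegf held 32.4% and Egfr 17.6% of 34 counts. The intervals cover counting error only. The siCTL and eGFP ratios and shares rest on the Areg counts that chose the set, so they are a description.

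**Figure D3:**
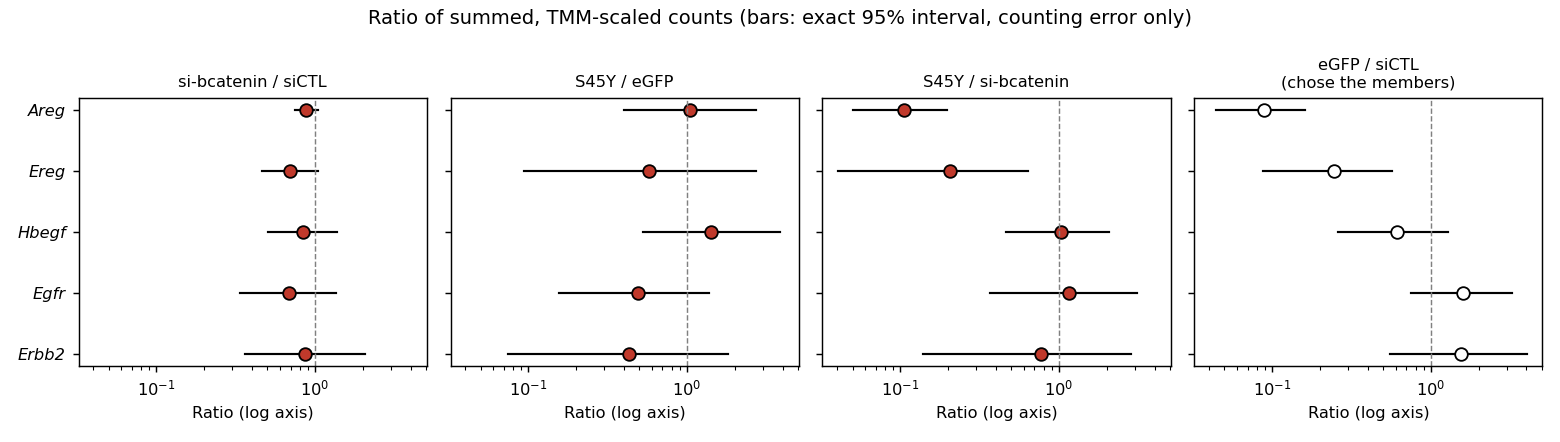
Ratio of summed, TMM-scaled counts (log axis) for 5 family members in each comparison, with exact 95% counting intervals (bars) and a dashed line at no difference; the open symbols are the contrast that chose the set. For S45Y over si-bcatenin, Areg lies at 0.106 and Ereg at 0.205 with intervals below 1, and Hbegf, Egfr and Erbb2 have intervals that include 1.

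Transfection reagent, nucleic acid and time all differ between S45Y and si-bcatenin, and they cannot be told apart here. β-catenin state differs as well, and the Areg values with and without its change in each arm are those given above for silencing and for S45Y against eGFP. Likewise, fewer cells that express a gene and less RNA per cell cannot be told apart in bulk RNA. The share of Rn45s moved with the same split, and its part in the result was not tested beyond leaving Rn45s out of the totals, after which the Areg log2 fold change was −3.17. The summed cholangiocyte markers were higher in plasmid libraries, with 1370 to 1946 CPM in eGFP and 1564 to 1983 in S45Y against 901 to 1244 in siCTL and 764 to 884 in si-bcatenin. In S45Y against si-bcatenin, 3 of these markers passed and were higher, the opposite direction to Areg, beside 238 higher of all 2702 genes tested. Their log2 fold changes were 1.07 for Krt18 (edgeR adjusted p = 8.35e-05), 1.15 for Krt8 (0.00104) and 1.35 for Spp1, the gene of osteopontin (0.000492). Krt19 was also tested and did not pass (0.71, edgeR adjusted p = 0.121), and the remaining cholangiocyte markers had too few counts to be tested. In eGFP against siCTL, as a description, Krt18 was at 0.76 (95% interval 0.40 to 1.12) and Krt8 at 1.14 (0.64 to 1.63). Krt19 was at 0.36 (−0.26 to 0.97) and Spp1 at 0.36 (−0.15 to 0.86). In si-bcatenin against siCTL these genes were lower without passing, from −0.09 for Krt8 to −0.74 for Spp1 (edgeR adjusted p = 0.926 and 0.126). Summed immune markers, led by Cd68, overlapped between si-bcatenin (76.8 to 121 CPM) and S45Y (51.1 to 113 CPM). Summed levels in those 2 groups were at most 32.0 CPM for hepatocyte markers, 8.66 CPM for endothelial markers and 0 for fibroblast markers, which reached 49.2 CPM in an eGFP library.

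The remaining members were too sparse to compare. Btc, the betacellulin gene, had 2 counts in siCTL, 5 in si-bcatenin and none in either plasmid group, where 3 counts over the group would be 8.47 CPM in eGFP and 9.85 CPM in S45Y. Epgn, the epigen gene, had 5 counts in siCTL, 2 in si-bcatenin and none in the plasmid groups. Tgfa, which encodes transforming growth factor α and lies on chromosome 6, had 3 counts in 1 siCTL library, 2 in 1 eGFP library and none elsewhere. Erbb3, a receptor that binds neuregulins and signals through its partners, had 3 counts in siCTL, 1 in si-bcatenin, none in eGFP and 1 in S45Y. Egf, on chromosome 3, had no count in any group, which allows up to 3.55 CPM in siCTL, 3.26 in si-bcatenin, 8.47 in eGFP and 9.85 in S45Y. All these levels were under or close to those limits, so the absence of Btc and Epgn from plasmid libraries is not a detectable difference.

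Other genes of the pathway were taken from lists of 61 genes, comprising further ErbB ligands and a receptor, sheddases, adaptors, the Ras-MAPK and PI3K-Akt cascades, feedback inhibitors and ERK-responsive genes. Of these 5 had no count (Erbb4, Nrg2, Nrg3, Spry4 and Lrig3), and 44 had at least 15 counts over the 12 libraries. In silencing, 15 were tested and 0 passed, and none had an unadjusted p below 0.05 by edgeR. In activation, 7 were tested and 0 passed, again with none at an unadjusted p below 0.05. In S45Y against si-bcatenin, 10 were tested, 1 was lower and 0 were higher, beside 11.8% lower and 20.6% called in either direction over all genes tested. Median log2 fold changes of the tested pathway genes were −0.07 in silencing, −0.09 in activation and −0.04 in S45Y against si-bcatenin, beside −0.00, 0.02 and 0.02 over all genes tested.

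The 1 that passed was Nrg4, which encodes neuregulin 4, a ligand of ErbB4. It was at 445 ± 53.6 CPM in si-bcatenin (383 to 481) and 258 ± 29.1 CPM in S45Y (225 to 277), without overlap (SD, n = 3 each). Its log2 fold change was −0.76 (SE 0.23, edgeR adjusted p = 0.0159), and the adjusted p was 0.0872 without si-bcatenin replicate 2 and 0.0707 without si-bcatenin replicate 3. Exons of Nrg4 share 368 bases with Fbxo22 on the opposite strand, and Erbb4, the receptor of this ligand, had no count. Adam17, the sheddase that releases amphiregulin, was at 63.8 ± 11.7 CPM in si-bcatenin and 23.6 ± 6.71 CPM in S45Y (SD, n = 3 each) but did not pass (log2 fold change −1.41, SE 0.62, edgeR adjusted p = 0.107). Its exons share 311 bases with Iah1 on the opposite strand. With 7 counts in S45Y, Adam17 passed the filter through si-bcatenin alone, the group where it was high. Without a filter its log2 fold change was −1.72 (edgeR adjusted p = 0.157).

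Akt1, a kinase of the PI3K-Akt cascade, had a log2 fold change of 0.69 (edgeR adjusted p = 0.251) in S45Y against si-bcatenin. Fosl1, an ERK-responsive AP-1 subunit, was at 0.15 (edgeR adjusted p = 0.811), and its sign turned with the filter on low counts. In silencing the genes with the smallest p included the ETS factor gene Etv4 (log2 fold change −0.46, edgeR adjusted p = 0.785), Braf (−0.15, 0.830), the immediate early gene Ier2 (0.52, 0.746), Nrg4 (0.14, 0.821) and the feedback inhibitor gene Lrig1 (0.22, 0.886). In activation they included Akt1 (0.92, edgeR adjusted p = 0.931), Junb (−0.47, 0.989), Fosl1 (0.32, 0.989) and Braf (0.29, 0.989). None of these passed. In eGFP against siCTL, given as a description for 11 pathway genes, the most negative log2 fold changes were those of Myc (−1.08), Braf (−0.47) and Nrg4 (−0.45), and the most positive that of Junb (0.40). The median of these 11 was −0.03, beside 0.01 over the 2459 genes of that contrast.

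**Figure D4:**
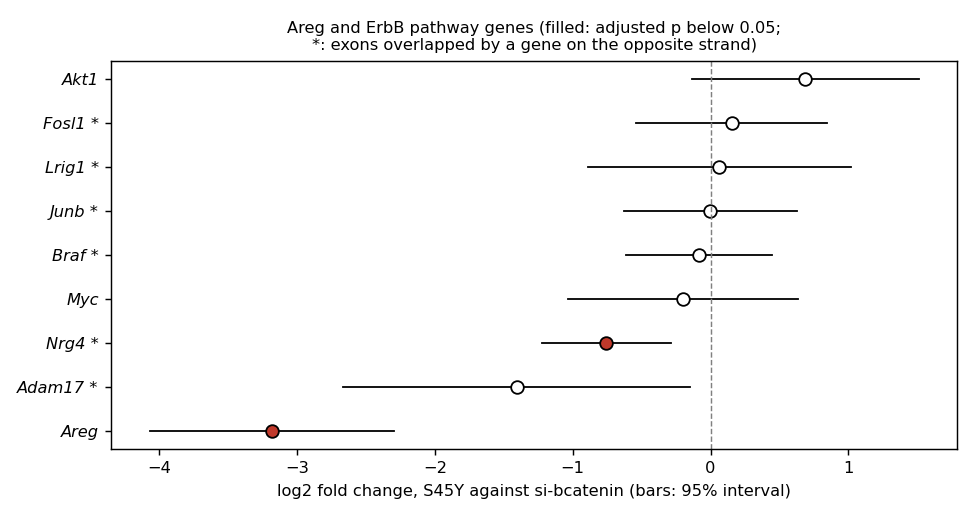
Log2 fold change of S45Y against si-bcatenin (points) with 95% intervals (bars) for Areg and 8 of the 10 pathway genes tested, filled where the edgeR adjusted p was below 0.05; an asterisk marks genes whose exons share bases with an opposite-strand gene. Areg at −3.18 stands below the 8 pathway genes drawn, of which Nrg4 at −0.76 is the filled one.

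Finally, genes with levels most like those of Areg and Ereg over the 12 libraries were sought among 2996 genes with enough counts. For Areg these were Rbm18 (Pearson r = 0.963), Gm10390 (0.953) and Josd1 (0.953), and for Ereg Brip1os (0.946), Prss12 (0.943) and Gm10785 (0.917). Rbm18, an RNA-binding motif gene, averaged 84.1 CPM in siCTL, 86.3 in si-bcatenin, 22.2 in eGFP and 19.7 in S45Y. Josd1, a deubiquitinase gene, averaged 267 CPM in siCTL, 212 in si-bcatenin, 130 in eGFP and 108 in S45Y, and of these 6 genes it was the one without an exon overlap on the opposite strand. The 12 points share the split into siRNA and plasmid libraries and with it the depth, so each r is a description of levels that share that split.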

How the data were processed

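RNA-seq of 12 SMCC libraries was analysed, 3 per group as labelled. Per the study's methods and the submitters' processing notes, the authors checked reads with FastQC, trimmed them with Trimmomatic 0.38, aligned them to mm10 with HISAT2 2.1.0 and counted them per gene with HTSeq 0.11.2. The deposited values are whole-number counts without normalization. Annotation and strand setting are not given in the sources used here, so genes overlapping on opposite strands may not be separated. Positions and exon lengths are from GENCODE M21.

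The members and gene lists were chosen with earlier results of these data known. Counts were scaled by TMM, filtered with filterByExpr (minimum count 10, minimum total 15) and tested by the edgeR 4.0.16 quasi-likelihood test in R 4.3.3, with Benjamini-Hochberg adjustment over all genes tested and a threshold of 0.05. Permutation tests used log2 CPM (prior count 2). Intervals of summed counts are exact conditional Poisson intervals, and where no count was found up to 3 were allowed. No source says that replicates were separate cultures, so p-values measure the spread between these libraries, which may be technical. No libraries were identical. The code was tested on simulated counts.

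Named genes were the members, Ctnnb1, Rn45s, markers, pathway genes with an adjusted p below 0.05 or, up to 3 per direction, the smallest p (in eGFP against siCTL the largest change), and the 3 closest patterns. Some pathway genes of the lists enter the counts and medians but are not reported here by name. The individual markers other than Krt18, Hnf4a and Cd68, and pathway genes without counts, were named after their values were seen. Alternatives were DESeq2 1.42.0, RLE size factors, no filter, a lower filter (minimum count 3, chosen after seeing the data), the 4 groups in a joint fit, a replicate block, Rn45s left out, and each library left out.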

Additional observations from a re-analysis of the deposited data

How the results depend on the processing

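The calls of the family held under all alternatives run: 0 members in silencing, 0 in activation and 1 (Areg) in S45Y against si-bcatenin. The Areg log2 fold change in the last lay between −3.50 and −3.16 under the other settings (adjusted p 3.72e-15 to 3.17e-05) and between −3.78 and −2.71 with 1 library left out (4.35e-09 to 2.05e-05). In silencing it lay between −0.35 and −0.09 with 1 library left out, and the activation difference between −0.76 and 0.93, with either sign. For Ereg in S45Y against si-bcatenin, fits that kept it gave −2.50 without a filter (adjusted p 0.0811) and −2.21 in the fit of all 12 libraries (0.0602), against −1.51 as a difference of log2 CPM. All genes called in silencing numbered 54, 31 to 49 with 1 library left out (34 without siCTL replicate 1, 31 without si-bcatenin replicate 2, 32 without si-bcatenin replicate 3) and 38 to 64 otherwise. In S45Y against si-bcatenin they numbered 557, 418 to 507 with 1 library left out and 468 to 582 otherwise, and the pathway genes called 0 to 1, with 0 without si-bcatenin replicate 2 or 3. Signs turned for Hbegf in silencing (−0.67 to 0.030 with 1 library left out, the latter without si-bcatenin replicate 2) and Fosl1 in S45Y against si-bcatenin (−0.17 without a filter, −0.010 with the lower filter, −0.0099 to 0.42 with 1 library left out, the lowest without S45Y replicate 1), neither of which passed in any setting. Over all alternatives, signs also differed for sparse members without a call, namely Erbb2 in silencing (−0.38 to 0.19), Ereg (−0.75 to 0.09) and Erbb2 (−1.18 to 0.41) in activation, and Hbegf (−0.25 to 0.41), Egfr (−0.14 to 0.49) and Erbb2 (−0.68 to 0.13) in S45Y against si-bcatenin. The causes were not tested. Libraries with the same replicate number did not deviate together (r between −0.05 and 0.03), which gives no sign of a pairing. With counts this low a pairing may go unseen, so it is not excluded. With the replicate number as a block, 64 genes were called in silencing, 0 in activation and 468 in S45Y against si-bcatenin, Areg was at −0.20 in silencing (adjusted p 0.754) and −3.20 in S45Y against si-bcatenin (3.17e-05), and no call of a member or pathway gene changed. Fits that test Areg in activation were possible without a filter, with a lower filter, over all 12 libraries and with DESeq2. Depth limits all members, Areg in the plasmid libraries included, since 1 count there weighs up to 11.4 CPM.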
